A study of Mus musculus with 2 samples.

Results

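The genes of cyclic AMP (cAMP) signalling were described in the mouse hippocampus: the adenylyl cyclases that make cAMP, the phosphodiesterases that break it down, the subunits of protein kinase A (PKA) that it activates, and the A-kinase anchoring proteins (AKAPs) that place PKA in the cell. Members were chosen by symbol alone, as every gene named Adcy, Pde, Prkar1, Prkar2, Prkac or Akap with its number and letter, a rule in which no measured value enters. This gave 55 of the 55536 annotated mouse genes: 10 cyclases, 25 phosphodiesterases, 4 regulatory and 2 catalytic PKA subunits, and 14 AKAPs. PKA anchors with other names, such as Map2, were kept in a separate list. The symbol does not settle the function: Pde12, Pde6d, Pde6g and Pde6h are not catalytic cyclic nucleotide phosphodiesterases, and Akap2 shares reads with the overlapping gene Pakap.

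The study sequenced total RNA of hippocampal tissue from male B6CASTF1/J mice, F1 hybrids between the strains C57BL/6J and CAST/EiJ, aged 36 days. It had 1 group with 2 libraries, biological replicates 1 and 2, each made from 300 ng of RNA with ERCC spike-in transcripts, and no treatment was named. Both libraries carry the same donor label but different biosample labels, and they were read as 2 animals. The tissue label says layer of hippocampus, and which layer or field was taken is not stated. Replicate 1 held 28786216 expected counts, spike-ins included, and replicate 2 held 29755033. Markers of forebrain excitatory neurons and of both main hippocampal fields were present: Camk2a stood at 1347 and 1414 TPM, the CA1 gene Wfs1 at 73.4 and 62.0 TPM and the dentate granule cell gene Prox1 at 32.9 and 45.1 TPM in replicates 1 and 2. TPM scales a transcript's counts by its length and by the library's total, so that levels can be compared between genes within a library.

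In neurons, cyclases turn ATP into cAMP when a receptor activates the stimulatory G protein or, for some cyclases, when calcium enters the cell. Inactive PKA is a complex of a regulatory dimer with a pair of catalytic subunits. Binding of cAMP to the regulatory subunits frees the catalytic ones, which phosphorylate channels, receptors and the transcription factor CREB. In the hippocampus this cascade is known for its part in lasting synaptic potentiation and memory. Phosphodiesterases and AKAPs keep the signal local, and many of their genes have several starts that give proteins with different amino ends.

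Such alternative starts carried much of the RNA of Prkacb, Pde2a and Pde4a, and the coding bases where their transcripts part are shown for that reason. The sequences are of the GENCODE M21 transcripts on mm10, written 5′ to 3′. Lower case marks up to 45 coding bases particular to the transcript, and capitals mark the 30 coding bases after them that its partners share. For Akap6 the coding parts differ at the other end, so the 30 shared bases come before those in lower case.
Prkacb-202: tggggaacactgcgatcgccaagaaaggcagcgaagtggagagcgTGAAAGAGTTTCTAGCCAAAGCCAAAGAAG
Prkacb-203: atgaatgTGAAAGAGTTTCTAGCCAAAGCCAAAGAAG
Prkacb-204: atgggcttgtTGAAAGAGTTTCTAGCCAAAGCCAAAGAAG
Pde2a-204: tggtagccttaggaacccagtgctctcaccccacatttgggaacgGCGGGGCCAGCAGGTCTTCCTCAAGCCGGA
Pde2a-201: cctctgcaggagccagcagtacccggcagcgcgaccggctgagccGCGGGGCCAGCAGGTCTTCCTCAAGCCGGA
Pde4a-202: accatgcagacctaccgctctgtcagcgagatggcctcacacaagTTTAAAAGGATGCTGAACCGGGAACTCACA
Pde4a-201: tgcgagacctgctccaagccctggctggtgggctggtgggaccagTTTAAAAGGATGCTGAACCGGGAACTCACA
Akap6-201: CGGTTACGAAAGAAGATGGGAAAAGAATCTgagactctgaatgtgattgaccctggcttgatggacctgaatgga
Akap6-202: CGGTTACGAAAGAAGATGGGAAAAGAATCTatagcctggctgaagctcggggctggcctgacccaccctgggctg
The Prkacb transcripts share 1007 coding bases, and their own parts before them are 46, 7 and 10 bases long. The own part is 768 bases in Pde4a-202 against 66 in Pde4a-201, so the protein of the former is much the longer. In Pde2a the own parts before the junction are 101 and 71 bases long. Pde2a-204 and Pde2a-201 share 2734 of their 2835 and 2817 coding bases, so Pde2a-201 also has some unshared coding bases after the junction. Akap6-201 goes on for 3345 coding bases after the shared 3576, and Akap6-202 for only 96.

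Of the 55 members, 43 reached 1 TPM in both libraries, the level called expressed here. That is 78.2% of the members, beside 57.8% of all 22028 protein-coding genes. A further 10 stayed under 1 TPM in both libraries, and Adcy4 and Pde3a lay on either side of that level. The median level of the expressed members was 24.5 TPM, beside 15.0 TPM over all expressed protein-coding genes, and 29 of the 43 lay above the latter. The members summed to 1753 and 1670 TPM in replicates 1 and 2, which was 0.394% and 0.384% of the protein-coding TPM. Phosphodiesterases held 27.4% ± 0.028 of it (SD, n = 2, as for the following shares), PKA regulatory subunits 24.2% ± 0.32, AKAPs 19.4% ± 0.24, cyclases 17.5% ± 0.053 and PKA catalytic subunits 11.6% ± 0.059. The 6 PKA subunit genes thus held more of the TPM than the 25 phosphodiesterase genes. The members lay on 20 chromosomes and were long genes, with a median span of 90.1 kb beside 17.3 kb for all protein-coding genes. Pde4d, the longest, spans 1504 kb of chromosome 13.

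**Figure D1:**
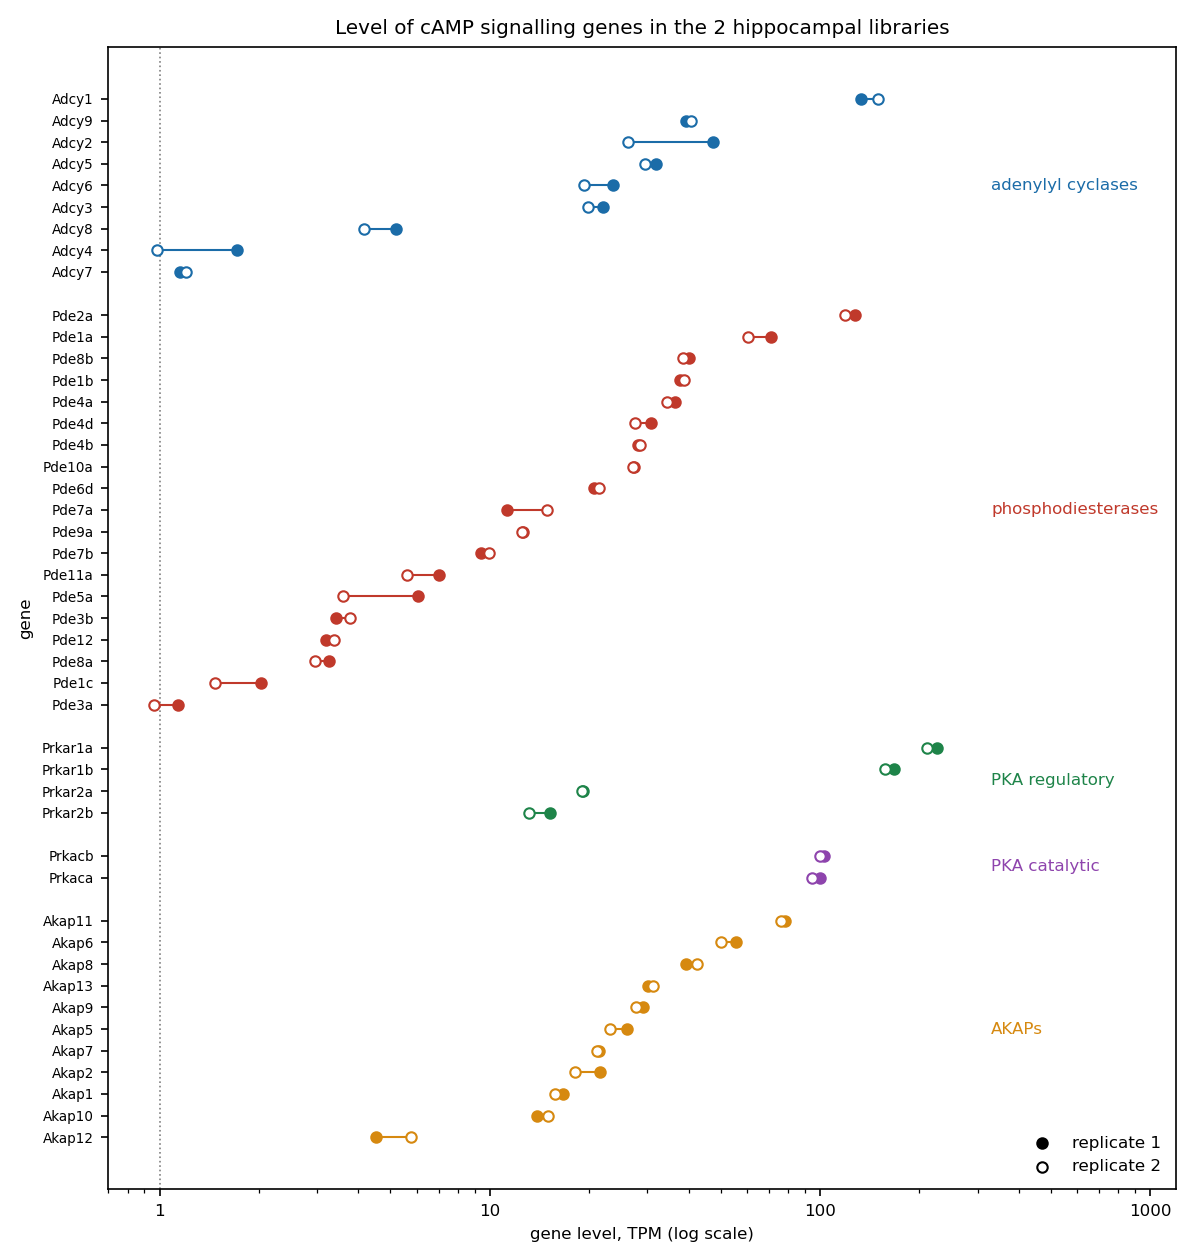
Level in TPM (log axis) of the 45 members that reached 1 TPM in at least 1 library, ordered by mean level within each role; filled points are replicate 1, open points replicate 2, and the dotted line marks 1 TPM. Points of a gene lie close together for most members; Adcy2 (47.5 and 26.2 TPM), Pde5a (6.07 and 3.60 TPM) and Adcy4 (1.72 and 0.98 TPM) are the widest pairs.

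Among the cyclases, the calcium- and calmodulin-stimulated Adcy1 (chr11:7063489-7178506 on the plus strand of mm10) was by far the highest, at 133 TPM in replicate 1 and 150 TPM in replicate 2. It alone held 43.6% and 51.3% of the cyclase TPM. Of the other calmodulin-stimulated cyclases, Adcy3 stood at 22.0 and 19.9 TPM and Adcy8 at 5.19 and 4.16 TPM, so that in both libraries Adcy8 was the lowest of the 3. Together they held 52.4% and 59.6% of the cyclase TPM.

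Adcy9, which responds only weakly to the plant diterpene forskolin, stood at 39.3 and 40.7 TPM. Adcy2, a cyclase that G protein beta-gamma dimers stimulate together with the stimulatory alpha subunit, stood at 47.5 and 26.2 TPM. It was the second among cyclases in replicate 1 and the fourth in replicate 2. The pair inhibited by calcium and by inhibitory G proteins stood at 31.8 and 29.5 TPM for Adcy5 and at 23.6 and 19.3 TPM for Adcy6. In replicate 2 Adcy5 was above Adcy2, and Adcy3 above Adcy6. Adcy5 is best known from the striatum, and 8 markers of striatal projection neurons summed to 50.9 and 51.7 TPM in these libraries.

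The remaining cyclases were near or below 1 TPM. Adcy7, which is known from blood cells and microglia, was at 1.15 and 1.20 TPM. Adcy4, known from endothelium, was at 1.72 and 0.98 TPM with 102 and 70 counts. The soluble, bicarbonate-sensitive cyclase Adcy10 was at 0.27 and 0.25 TPM, with 7 and 10 counts.

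Pde2a (chr7:101421691-101512827, plus strand) led the phosphodiesterases at 128 and 119 TPM. It hydrolyses both cyclic nucleotides, and cGMP stimulates its breakdown of cAMP. Pde1a followed at 71.2 and 60.5 TPM, and its relative Pde1b stood at 37.6 and 38.6 TPM; calcium and calmodulin activate both. The cAMP-specific Pde8b, which the common inhibitor IBMX does not block, stood at 40.0 and 38.5 TPM, and its values overlapped those of Pde1b.

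Grouped by substrate, the enzymes that hydrolyse both cyclic nucleotides held 57.1% ± 1.0 of the phosphodiesterase TPM (SD, n = 2, as for the next 2 shares). The cAMP-specific enzymes held 33.9% ± 0.90 and the cGMP-specific ones 3.74% ± 0.26. Among the cAMP-specific enzymes, 7 of 8 were expressed. Within the Pde4 family, the targets of the drug rolipram, Pde4a (36.3 and 34.4 TPM), Pde4d (30.8 and 27.6 TPM) and Pde4b (28.1 and 28.4 TPM) lay close together, while Pde4c reached only 0.50 and 0.94 TPM. Pde7a stood at 11.3 and 15.0 TPM, Pde7b at 9.41 and 9.98 TPM and Pde8a at 3.26 and 2.96 TPM.

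Pde10a, an enzyme most abundant in striatal projection neurons, stood at 27.3 and 27.2 TPM, above the marker Ppp1r1b (DARPP-32) of those neurons at 19.3 TPM in both libraries. Pde11a, which within the brain is known from ventral hippocampus, was at 7.03 and 5.61 TPM. The cGMP-inhibited enzymes of the Pde3 family were low, with Pde3b at 3.43 and 3.78 TPM and Pde3a at 1.14 and 0.96 TPM, and so was Pde1c at 2.03 and 1.47 TPM. Of the cGMP-specific enzymes, Pde9a stood at 12.7 and 12.5 TPM and Pde5a, the target of sildenafil, at 6.07 and 3.60 TPM.

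The photoreceptor enzymes had few counts in the gene table, and the second transcript table, described further on, gave more for Pde6a and Pde6h. Pde6b had 5 and 7 counts, Pde6c 3 and 1, and Pde6a 0 and 4; their inhibitory subunits Pde6g and Pde6h had 8 and 9 and 11 and 14 counts. Of 10 photoreceptor markers 2 reached 1 TPM, and their summed level was 4.93 and 5.06 TPM; Crx, Gnat2, Pdc and Prph2 were at 0 counts in both libraries. A count of 0 allows up to 3 counts, or 0.104 and 0.101 CPM (counts scaled to equal library totals) in replicates 1 and 2, by counting error alone. Pde6d, named like them, carries lipid-anchored proteins through the cell, and it stood at 20.6 and 21.4 TPM. Pde12, a mitochondrial RNA deadenylase, was at 3.20 and 3.38 TPM.

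The PKA regulatory subunits were dominated by type I. Prkar1a (chr11:109649405-109669656, plus strand) stood at 226 and 211 TPM, the highest level of any member in both libraries, and the neuron-enriched Prkar1b at 168 and 157 TPM. The type II subunits, which bind most AKAPs more tightly, were far lower, Prkar2a at 19.1 and 19.0 TPM and Prkar2b at 15.3 and 13.2 TPM. Type I held 92.0% of the regulatory TPM in replicate 1 and 91.9% in replicate 2. In the order of the 4 genes the values of neighbours did not overlap between libraries.

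The catalytic genes stood close together, Prkacb (chr3:146729574-146812990, minus strand) at 103 and 99.9 TPM and Prkaca at 99.8 and 94.4 TPM. Prkacb was the higher in both libraries, but its value in replicate 2 lay next to that of Prkaca in replicate 1. Summed regulatory TPM was 2.11 and 2.06 times the summed catalytic TPM. In the second transcript table the same ratio was 1.97 and 1.92. These are ratios of RNA levels, and protein was not measured.

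Among the AKAPs, Akap11, a large anchor that also binds the kinase GSK3, (chr14:78492246-78536808, minus strand) was the highest at 78.5 and 76.0 TPM. Akap6, known for anchoring PKA at the nuclear envelope, followed at 55.5 and 50.2 TPM. Akap8, a nuclear matrix protein, was at 39.3 and 42.4 TPM and Akap13, also a guanine nucleotide exchange factor, at 30.6 TPM ± 0.76 (SD, n = 2). Akap9, the centrosomal and Golgi anchor, stood at 29.2 and 27.7 TPM, and Akap5, the postsynaptic anchor also called AKAP79/150, at 26.0 and 23.1 TPM. Akap7, Akap2, Akap1 and Akap10 lay between 13.9 and 21.6 TPM in both libraries. Akap12 was the lowest expressed anchor, at 4.53 and 5.78 TPM. The testis and sperm anchors were at or near 0, with 4 and 2 counts for Akap3 and none in either library for Akap4 and Akap14.

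The members differed widely in how their RNA was spread over transcripts. The deposited first transcript table gives each transcript's share of its gene's TPM as a percent. Of the 43 expressed members, 9 had a transcript at 90% or more in both libraries, among them Adcy1-201 (99.9% and 99.8%), Adcy5-201 (98.0% and 94.6%), Prkaca-201 (99.7% in both) and Prkar1b-201 (94.9% and 94.1%). For 12 members the leading transcript stayed under 50% in both. Neither count was set beside one over other genes, so they describe the members only. Transcripts annotated as protein-coding held 88.8% of the expressed members' TPM in replicate 2, beside 83.7% over all expressed protein-coding genes. Retained-intron transcripts held 5.80% there, beside 8.70%. Transcripts annotated as targets of nonsense-mediated decay went the other way, with 3.61% there beside 2.61%. Akap8 was the member farthest from the protein-coding share, with 76.3% and 72.7% of its TPM in transcripts of other classes.

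Prkacb had several starts in use. Prkacb-202, with the 46-base own part shown above, held 46.7% and 52.3% of the gene's TPM and 39.9% and 42.4% in the second transcript table. Prkacb-203 held 17.6% and 16.0% and Prkacb-204 8.24% and 7.65%, so that the longest of the 3 own parts came with the most RNA in both tables. Prkacb-208, a model of 493 bases, held 24.9% and 21.6%, on 207 and 183 counts. Pde4a was split between the long form Pde4a-202 (55.1% and 57.1%) and the short form Pde4a-201 (42.1% and 39.7%), and the second table gave 52.7% and 56.9% against 44.1% and 39.8%. For Akap6, the long Akap6-201 held 51.3% and 51.9% and the short Akap6-202 48.7% and 48.2%, with 54.6% and 55.2% for the former in the second table. The longer form thus held the larger share in each of the 4 estimates of both genes.

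For Pde2a the tables differed. In the first, Pde2a-204 held 28.0% and 36.7%, Pde2a-201 20.3% and 19.6%, and Pde2a-209, annotated as a target of nonsense-mediated decay, 35.7% and 29.0%. In the second table Pde2a-204 held 55.2% and 47.7% and Pde2a-209 had only 0.0976% and 8.02%. Pde2a-209 is 4105 bases long and Pde2a-204 is 4100, and both tables gave Pde2a-201 a similar share, 25.1% and 23.8% in the second.

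**Figure D2:**
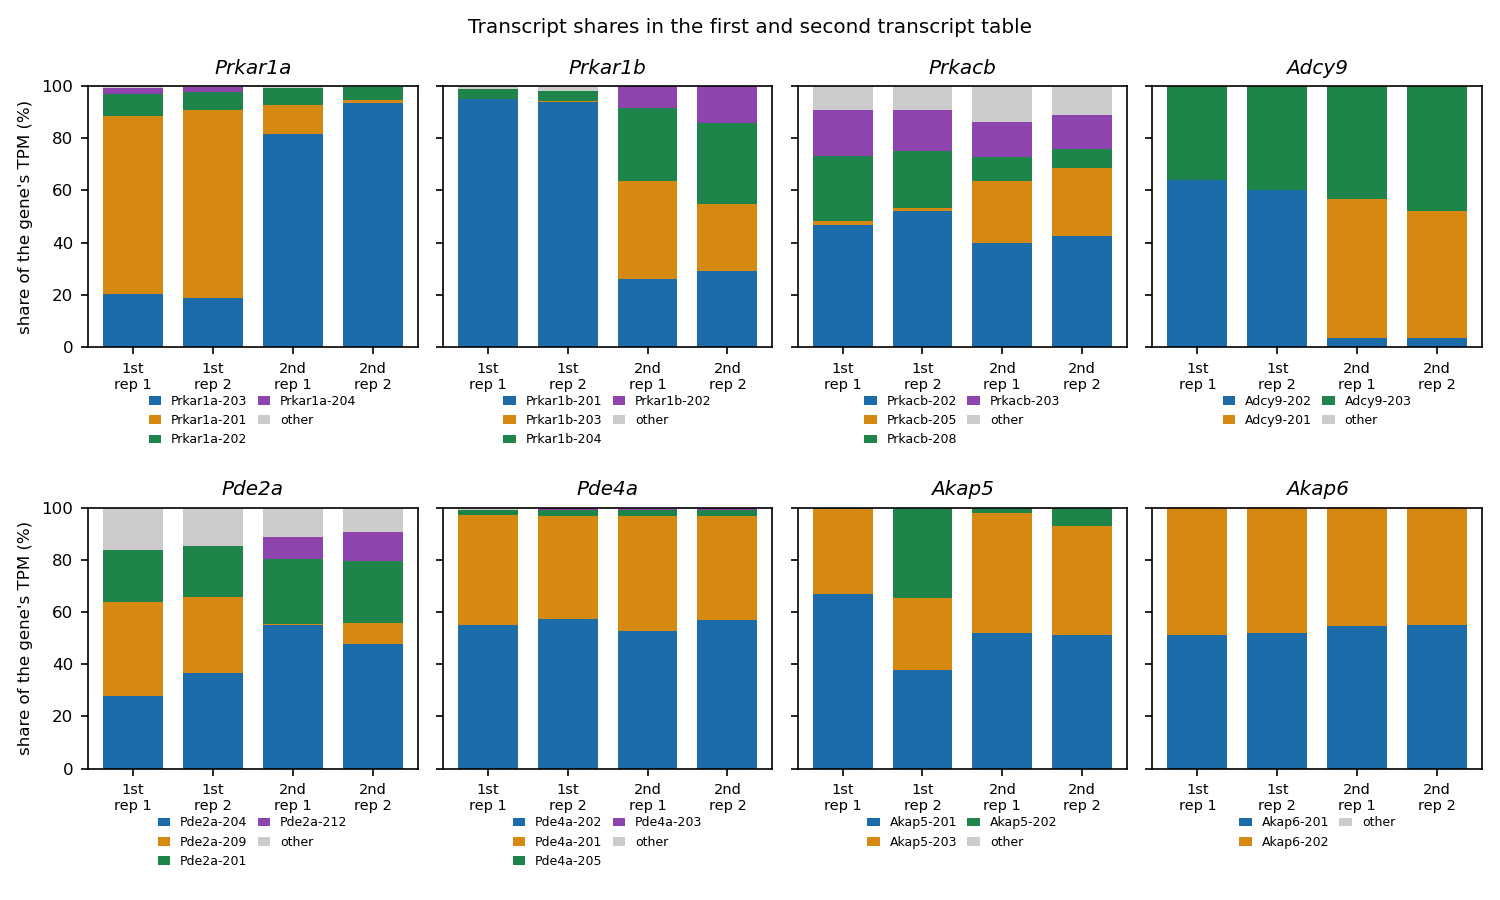
Share of each gene's TPM (%) held by its transcripts, for 8 members; in each panel the bars are the first transcript table in replicates 1 and 2 and the second transcript table in replicates 1 and 2, coloured by transcript, with the remaining transcripts in grey. Pde4a and Akap6 look alike in all 4 bars, Prkar1a, Prkar1b and Adcy9 change their leading transcript between the tables, and Akap5 differs between the libraries in the first table.

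The leading transcript was the same in both tables and both libraries for 29 of the 43 expressed members. Within a table the libraries shared it for 36 members in the first and 37 in the second. No share over other genes was set beside these counts, so they too describe the members only. In replicate 1 the tables named different leading transcripts for 12 members, and for 5 of these the coding part was the same, so that only the ends of the transcript outside it differed. Prkar1a was the highest of them: Prkar1a-201 held 67.9% and 71.8% in the first table but 11.3% and 1.27% in the second, where Prkar1a-203 held 81.5% and 93.3%. Both have the same coding part of 1143 bases, and their starts lie 1516 bases apart. Adcy9-202 held 64.1% and 60.2% in the first table and 3.55% and 3.60% in the second, where Adcy9-201, with the same 4059 coding bases, took 53.0% and 48.7%. Prkar1b-201 held 94.9% and 94.1% in the first table and 26.1% and 29.1% in the second. In the second, Prkar1b-203, with the same coding part, led in replicate 1 with 37.6%, against 25.9% in replicate 2. Prkar1b-204, a model of 918 bases, led in replicate 2 with 30.8%, against 27.8% in replicate 1.

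The start of Prkar1a-201 is shown because the cAMP response element, the motif TGACGTCA that CREB binds, lies there. The 30 bases before that start, chr11:109650891-109650920 on the plus strand of GRCm38 (RefSeq window of build GRCm38.p6), have the motif in capitals.
Prkar1a-201: gaggcgcatTGACGTCAgcagccgaacgct
It occupies positions 109650900 to 109650907 and ends 13 bases before the start. It was searched on both strands, on which it reads the same, in the RefSeq promoter windows of 300 bases. Windows were found for 44 of the 55 members, 86 windows in all. Prkar1a was the only member with the full motif, 1 of 44 members beside 2.03% of all genes with a window. By window, 2 of the 86 held it, both of Prkar1a, which is 2.33% beside 1.79% of all windows. The shorter TGACG, on either strand and contained in the full motif, was in 19.8% of the members' windows beside 20.8% of all windows. The letters thus occurred about as often in the members as elsewhere, and a match does not show binding.

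The other members with a second transcript of at least 20% ranged from steady to shifting between the libraries. Akap11-202 held 72.8% in both libraries with Akap11-201 at 24.0% and 22.8%, and Akap7-203 held 42.3% and 51.0% with Akap7-201 at 23.0% and 21.1%. The leading Akap2-206 (43.4% and 38.4%) was followed by Akap2-208 (30.6% and 29.2%), a model of 784 bases to which the second table gave 0.096% and 0. Among cyclases, Adcy6-201 held 26.7% and 40.5% beside the retained-intron transcript Adcy6-202 with 25.9% and 21.4%, and Adcy3-207 held 30.8% and 40.0% beside Adcy3-201 with 28.5% and 22.1%. Pde11a-201 led Pde11a-202, with 72.1% and 61.3% against 27.9% and 32.6%. Pde9a, with 28 annotated transcripts the most of any member, was led by Pde9a-201 in replicate 1 (20.4%, and 5.54% in replicate 2) and by Pde9a-211 in replicate 2 (23.8%, and 0 in replicate 1).

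The leading transcript of the remaining high members was Pde1a-206 (69.0% and 66.7%), Pde1b-201 (71.6% and 75.2%), Prkar2a-201 (76.5% and 82.4%) and Akap13-205 (47.6% and 38.9%). Pde8b-207 held 26.7% and 18.8% and Pde8b-208 14.7% and 19.9%, so that the lead changed between the libraries in the first table. In the second table Pde8b-207 led in both libraries. These shares rest on reads that fit several transcripts of a gene, and no test was made of them.

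Some splits differed more between the libraries. In the first table Akap5-201 held 66.7% in replicate 1 and 37.9% in replicate 2, and Akap5-202, a transcript 2 bases shorter, 0.56% and 34.8%; in the second table Akap5-201 held 52.1% and 51.0%. Prkar2b-201 led in replicate 1 with 45.6% against 39.4% for Prkar2b-202, and in replicate 2 had 34.2% against 55.2%, with the same coding part of 1248 bases. Prkar2b-202 led in both libraries of the second table. Pde5a-203, a non-coding transcript of 418 bases, held 49.8% and 7.83% of the Pde5a TPM. In the second table it held 66.5% and 51.6%. It had 19.8 and 1.94 counts, while the gene as a whole had 454 and 482 counts, so the gap in Pde5a TPM noted above was not present in its counts.

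The libraries were compared gene by gene on expected counts with an exact two-sided binomial test, and genes with a Benjamini-Hochberg adjusted p under 0.05 over all 18270 genes tested and a fold of at least 1.5 were called apart. Such a test compares these libraries, not conditions, and covers counting error only, since no animal was measured again. Of all genes tested, 1.88% were apart. By direction, 1.22% had the greater level in replicate 2 and 0.662% in replicate 1. Of the 55 members, 47 passed the minimum mean count of 10, and 1 was apart, Adcy2, higher in replicate 1; that is 2.13% of those tested. The members' median log2 ratio of replicate 2 over replicate 1 was -0.04, beside -0.00 over all genes tested. Of the 47 members, 20 were higher in replicate 2 and 27 in replicate 1.

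Adcy2 (ENSMUSG00000021536.7, chr13:68620043-68999541 on the minus strand of mm10) had 4014 expected counts in replicate 1 and 2327 in replicate 2. After scaling, the level was 1.78-fold higher in replicate 1 (95% exact interval 1.69 to 1.87, counting error only), with an adjusted p of 1.89e-108 in the exact binomial test. The second transcript table gave 75.2 and 43.2 TPM. The gene has a single annotated transcript, and transcripts outside the annotation were not examined. The antisense gene Gm35161, which overlaps an exon of Adcy2, had 27 and 23 counts. Among 2939 genes with a mean count within 2-fold of that of Adcy2, 2 others were as far apart in either direction, Ptgds and Ttr, both higher in replicate 2.

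Other values moved between the same libraries. By scaled counts, all 8 markers of the CA1 field were higher in replicate 1, with summed levels of 342 and 287 TPM, though none was apart and the widest, Ccn3, was 1.28-fold higher. All 10 markers of dentate granule cells were higher in replicate 2, with summed levels of 239 and 292 TPM, and 1 of them, Dsp, was apart. Of 11 choroid plexus markers 10 were tested, and all 10 were higher in replicate 2 and 8 of them apart. The 11 summed to 60.0 and 92.8 TPM, of which Enpp2 alone, 1.52-fold higher in replicate 2, gave 52.4 and 75.4 TPM. The widest of those tested, Slc4a5, was 18.5-fold higher in replicate 2, on only 2 and 47 counts. Meningeal markers, 7 of 8 higher in replicate 2, summed to 251 and 394 TPM, of which Ptgds alone gave 179 and 317 TPM. Of these markers 2 were apart in opposite directions, Ptgds higher in replicate 2 and Dcn, at 23.9 and 14.2 TPM, 1.69-fold higher in replicate 1. Interneuron markers, 8 of 8 higher in replicate 1, summed to 471 and 429 TPM with none apart, and oligodendrocyte markers, 8 of 8 higher in replicate 1, to 1797 and 1681 TPM with 1 apart, Opalin, 1.60-fold higher in replicate 1. Astrocyte markers summed to 1596 and 1593 TPM and microglial markers to 177 TPM in both libraries. Their part in the Adcy2 difference was not tested. In bulk tissue, fewer cells of a type and less RNA per cell cannot be told apart.

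**Figure D3:**
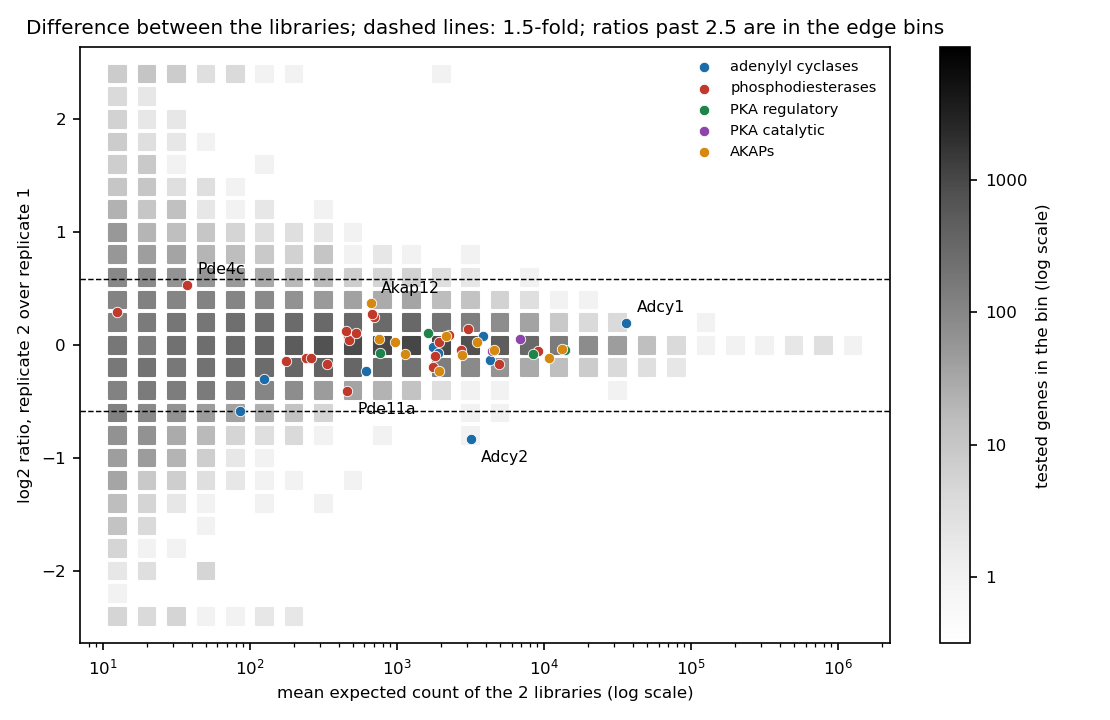
Log2 ratio of scaled counts, replicate 2 over replicate 1, against mean expected count (log axis); grey squares give the number of all tested genes in a bin, coloured points are the 47 members tested, and dashed lines mark 1.5-fold. Adcy2 lies at -0.83, below the lower line, where few genes of its count lie, and most members lie near 0.

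With no minimum fold, 13 of the 47 members had an adjusted p under 0.05 in the same binomial test. That is 27.7%, beside 11.4% of all genes tested. Smaller differences pass this test at higher counts, and the part of counts in the larger share was not tested. Adcy1, with the most counts of any member (33253 and 39318), was 1.15-fold higher in replicate 2 with an adjusted p of 3.23e-74. The sum of the cyclases hides these opposite moves: it was 306 TPM in replicate 1 and 292 TPM in replicate 2, while Adcy2 held 15.5% and 8.98% of it. Also higher in replicate 2 were the scaffold gene Akap12 (1.30-fold), Pde7b (1.21-fold), Pde7a (1.19-fold) and Pde10a (1.10-fold). Besides Adcy2, those higher in replicate 1 were Pde11a (1.32-fold), Akap2 (1.17-fold), Pde4d (1.14-fold), Pde1a (1.12-fold), Adcy5 (1.09-fold), Akap6 (1.08-fold) and Prkar1b (1.05-fold). Akap2 shares reads with Pakap on the same strand, which went the other way: Akap2 had 2040 and 1797 expected counts and Pakap 963 and 1218, so the Akap2 fold is uncertain. Of the PKA subunits, the other 5 did not pass, with folds of at most 1.08 either way. Adcy4, with 102 and 70 counts, had an adjusted p of 0.0723 in the exact binomial test, and Pde4c, with 30 and 45 counts and a 1.45-fold higher level in replicate 2, one of 0.412.

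Genes before and after these members in the pathway were taken from 11 lists with 81 genes, of which 62 were expressed and 74 tested. None was apart in the exact binomial test, while 26 had an unadjusted p under 0.05, which is 35.1% of those tested beside 21.8% of all genes. With no minimum fold, 18 had an adjusted p under 0.05, or 24.3% beside 11.4% of all genes. Their median log2 ratio was 0.06. Of the stimulatory G protein alpha subunits, Gnas stood at 714 and 688 TPM and Gnal, the olfactory and striatal form, at 43.7 and 45.6 TPM. The inhibitory family was led by Gnao1 at 276 and 254 TPM and Gnai2 at 87.2 and 77.1 TPM. Of 20 receptors that couple to the stimulatory G protein, the highest were Adcyap1r1, the PACAP receptor, at 52.8 and 58.9 TPM, and the orphan receptor Gpr12 at 15.5 and 14.9 TPM. Vipr2, Ptger4, Gpr6 and Ptger2 stayed under 1 TPM in both libraries.

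Downstream of cAMP, the exchange factors Rapgef4 (Epac2) and Rapgef3 (Epac1) stood at 145 and 142 TPM and at 19.3 and 23.7 TPM. The Rapgef4 level thus exceeded that of either PKA catalytic gene. The heat-stable PKA inhibitors Pkia and Pkig were at 67.6 and 76.6 TPM and at 34.5 and 36.6 TPM. The CREB coactivators Crtc1 and Crebbp, the highest of their list, stood at 70.8 and 73.8 TPM and at 36.1 and 38.1 TPM. Of a list of phosphoproteins that PKA regulates, Ensa was at 117 and 123 TPM and Arpp21 at 108 and 95.2 TPM.

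Anchors outside the Akap names reached higher levels than any Akap gene: Map2, the dendritic anchor of type II PKA, stood at 453 and 455 TPM and Wasf1 at 160 and 154 TPM. In the list of cyclic nucleotide-gated and HCN channel genes, Hcn2 stood at 43.5 and 42.0 TPM. Hcn4 and the 6 photoreceptor and olfactory channel genes of the list stayed under 1 TPM. On the cGMP side, Gucy1b1 and Gucy1a2, subunits of the nitric oxide receptor, were at 42.0 and 41.6 TPM and at 29.9 and 27.1 TPM, and Gucy2c, Gucy2d, Gucy2e and Gucy2f stayed under 1 TPM. The Popeye proteins, which bind cAMP at the membrane, were low, with Popdc3 at 2.97 and 2.71 TPM, Bves at 1.63 and 1.57 TPM and Popdc2 at 0.21 and 0.25 TPM.

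The kinds of deposited table were also compared for level, as the second transcript table summed per gene over the gene table, on log2(TPM + 0.01). Levels in the second table were the higher ones: the median fold over protein-coding genes was 1.68 in replicate 1 and 1.72 in replicate 2, and over the members 1.62 and 1.75. Accordingly 39 of the 47 members compared were over 1.5-fold apart in both libraries, all higher in the second table, which is 83.0% beside 78.7% of 13790 protein-coding genes. Taken relative to the median protein-coding gene of the library, an alternative chosen after seeing the data, 3 of 47 were apart, 6.38% beside 7.08% of all. They were Pde5a, Pde6h and Pde6a, all higher in the second table. Akap8 came nearest below the limit, 1.44-fold and 1.30-fold above the median gene, and Pde2a and Akap9 lay lowest, at 0.789 and 0.843 and at 0.802 and 0.815 of it.

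Pde6a was the member on which the tables differed most. It was listed at 0 and 4 expected counts in the gene table, whereas the second table gave 73.8 and 83.8 estimated counts, or 2.54 and 2.73 TPM. Nearly all of that lay in Pde6a-202, a transcript of 2263 bases, with 100% and 96.9% of the gene's TPM. Pde6h had 11 and 14 counts against 64.2 and 59.1 in the second table. With the photoreceptor genes Crx, Gnat2, Pdc and Prph2 at 0 counts, the tables thus placed reads at these genes to unequal extents, and the cause was not tested.

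**Figure D4:**
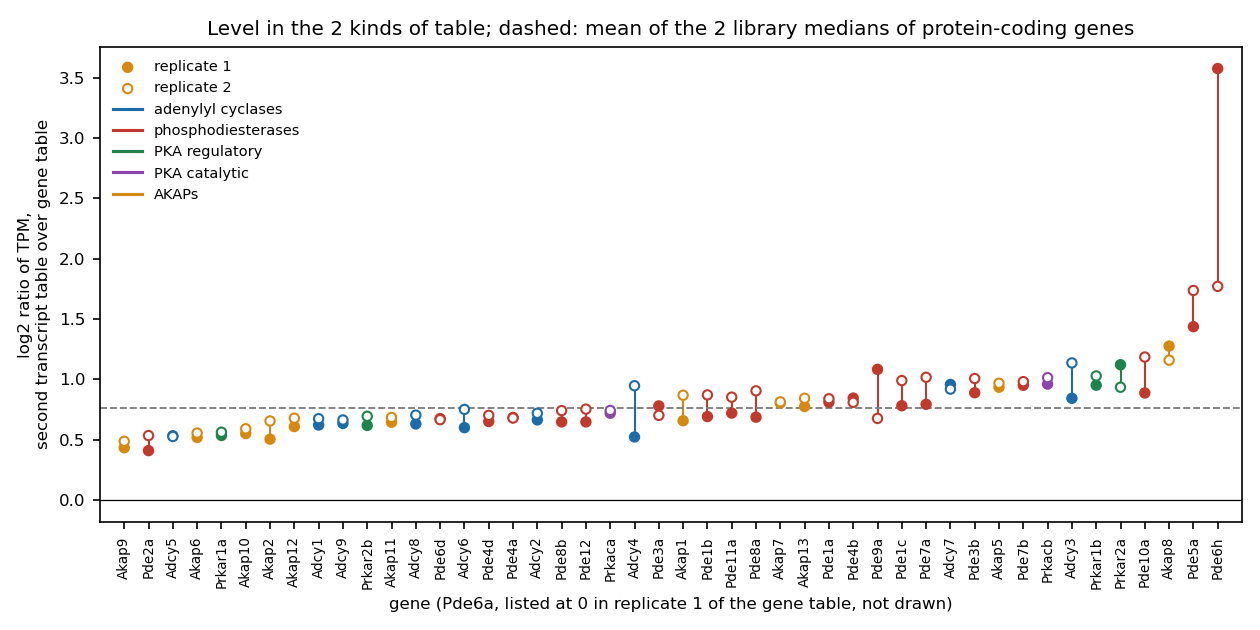
Log2 ratio of TPM, second transcript table over gene table, for 46 of the 47 members compared, ordered by mean ratio; filled points are replicate 1, open points replicate 2, and the dashed line is the mean of the library medians of protein-coding genes. Most members lie within a narrow band around the dashed line, with Pde5a and Pde6h above it; Pde6a, listed at 0 in replicate 1 of the gene table, is not drawn.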

How the data were processed

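Each library had 3 tables. The authors deposited a gene table of expected counts and TPM and a first transcript table that adds each transcript's share as a percent, both with the columns of RSEM per the file headers. Their second transcript table gives estimated counts and TPM, with the columns of kallisto per the file headers. The deposited description names mm10 and GENCODE M21; which programs and strand setting were used was not given in the sources used here. Members overlapping another gene (13 on the opposite strand, 4 on the same) are therefore uncertain. Rows of spike-ins and other identifiers that are no mouse gene, 0.421% and 0.408% of counts, were left out. Expected counts were rounded, and libraries were scaled with TMM factors (edgeR 4.0.16, R 4.3.3). Each gene whose expected counts averaged 10 or more was tested with the exact binomial test of scipy 1.17.1. The p-values were adjusted by Benjamini-Hochberg, and 0.5 was added to both counts before scaling for a fold. The procedure was tried on simulated counts that held counting error only, so that trial says nothing of the spread between animals. Reads are not independent molecules, so intervals and floors cover counting error only; a gene counts as sharing reads where its expected count is not whole by more than 0.005 and its deposited posterior SD is at least 1% of the count. The labels call the samples biological replicates of 1 group, so p-values compare these libraries only. Named were the 4 highest members of each role, all PKA subunits, members apart, those within 1.5-fold of 1 TPM, transcripts of members of at least 5 TPM whose second transcript reached 20%, and the 2 highest genes of each of the 11 pathway lists with those under 1 TPM; the remaining members were given by value or range. One gene that the rule names is not reported here. The symbol rule uses no measured value, but the choice of these members, of the pathway lists and of the 13 marker lists was made with earlier results of these data known. Alternatives covered scaling (DESeq2 1.42.0 size factors, spike-in totals), filters, thresholds, tables and left-out replicates.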

Additional observations from a re-analysis of the deposited data

How the results depend on the processing

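Adcy2 was the only member apart between the libraries with DESeq2 size factors, with spike-in totals, without a filter on low counts, in the second transcript table, without genes that share reads and with 2 times the smaller tail as p (added after seeing the data). Its log2 ratio ranged from -0.83 to -0.79 over these. With no minimum fold 13 members were apart, 27.7% beside 11.4% of all genes tested. With a 2-fold minimum 0 were, beside 1.02% of all genes tested. Leaving out a replicate ends the test between libraries. Expressed members numbered 35 at 5 TPM and 46 at 0.5 TPM, 47 in the second table, 46 over nuclear protein-coding genes, and 43 to 45 without either replicate. In the second table the cyclases held 16.5%, the phosphodiesterases 27.1% and the PKA catalytic subunits 12.6% of the members' TPM, each moving by more than the spread between libraries; the other shares did not. The same leading transcript in both tables was found for 31 to 32 members without either replicate, and for 23 of 35 at 5 TPM or more. Members apart between the tables numbered 4 with a 2-fold minimum, 8.51% beside 17.6% of protein-coding genes. Relative to the median protein-coding gene they numbered 3, or 6.38% beside 7.08%. With log2(TPM + 1) they numbered 31, or 66.0% beside 64.6%, and without a filter 43 of 55, or 78.2% beside 61.2%. Without replicate 1 there were 42, or 89.4% beside 86.6%, and without replicate 2 there were 39, or 83.0% beside 82.7%. No paired analysis was possible because the samples form 1 group. With 2 libraries the spread between animals is poorly estimated.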
